A study of Canis lupus familiaris with 22 samples.

Results

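Genes of the T cell receptor complex and of its first signalling steps were examined in the blood of dogs with canine atopic dermatitis (cAD) who received allergen-specific immunotherapy (ASIT). The set comprised 9 gene symbols (CD3D, CD3E, CD3G, CD247, LCK, ZAP70, CD4, CD8A and CD28), and every probe for a transcript whose gene name equalled one of them was taken, whatever its value. This gave 8 genes of the 14227 gene names on the array, with 13 of its 43603 probes. CD247, the zeta chain of the receptor complex, had no probe under that symbol. CD3D, CD3E, CD3G and CD4 had 1 probe each, CD8A, ZAP70 and CD28 had 2 each, and LCK had 3, numbered below from the brightest to the dimmest in the reference channel.

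The 22 arrays held RNA from the blood of 3 groups. These were 8 healthy, untreated dogs (ctrl), 7 dogs with cAD that had not yet started ASIT (0) and the same 7 dogs when they had been on ASIT for 6 months (6 months). All dogs were adults of various breeds and both sexes. The cAD patients were privately owned, and the control dogs were blood donors. Each cAD patient received subcutaneous injections of an extract of the allergens to which that dog reacted in skin tests. On every array the sample itself was in the Cy5 channel, with no dye swap, and the Cy3 channel held a reference pool of whole blood RNA from 13 healthy dogs. Values are therefore log2 ratios of the dog to that pool, so 0 means the level of the pool and a difference of 1 between groups means a doubling. The sample labels name whole blood as the source, while the study's methods name peripheral blood nuclear cells.

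The T cell receptor itself recognizes antigen but cannot signal. It is carried to the cell surface with the CD3 gamma, delta and epsilon chains and the zeta chain, whose cytoplasmic tails are phosphorylated by the kinase LCK once CD4 or CD8 has brought it to the receptor. The kinase ZAP-70 then docks on these tails and phosphorylates the adaptors downstream, and CD28 adds the costimulatory signal that a naive T cell needs. In dogs, CD4 is also carried by neutrophils, so in blood it is not a marker of helper T cells alone.

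All 13 probes were well above background in both channels on all 22 arrays, none was saturated, and no spot of them was excluded as an outlier. Per array, Cy5 was well above background on 83.6 to 92.2% of probes in ctrl, 53.3 to 87.5% in the group before ASIT and 57.1 to 81.6% in the group after it. The control arrays lay on 2 slides of their own, read on a scan day of their own, so that slide, scan day and health cannot be told apart in either comparison with ctrl. Among the patients, dogs 1, 2 and 3 had both arrays on the same slide. Dogs 4 to 7 had their arrays before and after ASIT on different slides. Their arrays after ASIT lay on a slide of their own, read on a scan day of their own. In these dogs slide, scan day and therapy cannot be told apart. All measured markers of T cells (8 genes), neutrophils (7) and red cell precursors (6) were well above background on all 22 arrays. T cells made up an unknown share of each sample, and in blood RNA fewer T cells and less RNA per T cell cannot be told apart.

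The probes are 60 bases long and are placed by the array files on canFam3.1. The probes of CD3G (chr5:15380636-15380695), CD3D (chr5:15396671-15396730) and CD3E (chr5:15405920-15405979) lie beside each other on chromosome 5, where the RefSeq gene order of a later dog assembly also has CD3G, CD3D and CD3E as direct neighbours. The exon in which each probe lies was not determined, for want of a canFam3.1 annotation. The polyadenylation signal AATAAA was found, on the strand of the probe, in the probe of CD3D and in LCK probe 1, and in 8.67% of all probes. Sequences of 4 probes are shown, for genes whose probes gave different patterns (ZAP70, CD28) and for a gene whose probes agreed (CD8A). The ZAP70 probes (probe 1 at chr10:44898414-44898472, probe 2 at chr10:44887817-44887876, both on the minus strand) share no overlap and gave different patterns. CD8A probe 2 (chr17:38398181-38400360, across a gap in the genome) ends in the bases with which CD8A probe 1 (chr17:38400347-38400406) begins, shown in capitals, and that pair gave nearly the same values. CD28 probe 2 (chr37:12526567-12532447) and CD28 probe 1 (chr37:12457609-12458446) each lie across a gap too, away from each other.
ZAP70 probe 1: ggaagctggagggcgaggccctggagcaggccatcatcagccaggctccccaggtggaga
ZAP70 probe 2: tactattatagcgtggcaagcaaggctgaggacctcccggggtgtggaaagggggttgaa
CD8A probe 2: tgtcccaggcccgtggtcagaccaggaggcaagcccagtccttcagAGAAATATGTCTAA
CD28 probe 2: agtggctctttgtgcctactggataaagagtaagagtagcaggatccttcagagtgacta

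None of the 13 probes differed between groups after adjustment over all 38285 probes tested (limma, Benjamini-Hochberg adjusted p under 0.05). In 0 vs. ctrl this was 0 of 13, against 0.0418% of all probes tested, with 7 probes higher and 6 lower in the patients, and the smallest adjusted p from limma was 0.645. For 6 months vs. ctrl it was 0 of 13, against 0% of all probes, with 3 higher and 10 lower after ASIT and a smallest adjusted p from limma of 0.681. For 6 months vs. 0 it was again 0 of 13, against 0% of all probes, with 3 higher and 10 lower and a smallest adjusted p from limma of 0.894. The median difference over the 13 probes was 0.00, -0.33 and -0.26 on the log2 scale in these comparisons, beside -0.02, -0.04 and 0.01 over all probes tested. The comparisons share groups of arrays, so the common direction of the last pair is not independent.

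Before adjustment, limma gave p under 0.05 for none of the 13 probes in 0 vs. ctrl (11.7% of all probes), for LCK probe 2 and CD28 probe 2 in 6 months vs. ctrl (2 of 13, against 7.2%) and for none in 6 months vs. 0 (5.96%). Exact permutation tests (two-sided, unadjusted) of the same differences gave p under 0.05 for none (12.5% of all probes), for 5 of 13 (10.5%) and for none (3.39%). The 5 probes were LCK probes 2 and 3, ZAP70 probe 2, CD4 and CD28 probe 2. The groups overlapped for all 13 probes in every comparison, while 0.217, 0.11 and 0.0183% of all probes had groups that did not overlap.

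**Figure D1:**
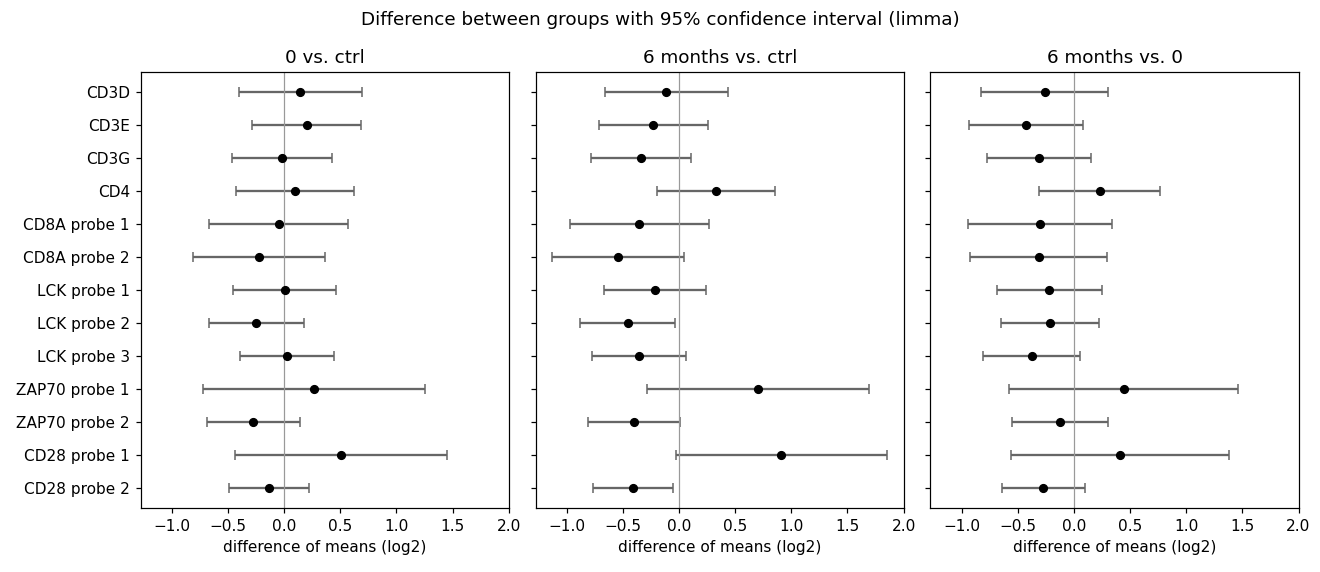
Difference of group means on the log2 scale (x axis) for each of the 13 probes (rows) in 0 vs. ctrl, 6 months vs. ctrl and 6 months vs. 0. Points are limma estimates and bars their 95% confidence intervals, unadjusted; the intervals of LCK probe 2 and CD28 probe 2 in 6 months vs. ctrl lie below 0, and all others cross it.

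The CD3 chains had their lowest group means after ASIT, below the reference pool for each of the 3 chains. CD3D, the delta chain, ran from -0.80 to 0.55 (median -0.21) in ctrl, from -1.52 to 0.57 (median 0.22) before ASIT and from -0.73 to 0.22 (median -0.35) after it. The lowest of these values came from dog 2, and after ASIT 6 of 7 dogs were below the pool. CD3E, the epsilon chain, had means of 0.07 ± 0.38 (SD, n = 8) in ctrl, 0.27 ± 0.59 (n = 7) before and -0.16 ± 0.42 (n = 7) after ASIT. Its difference over therapy of -0.43 ± 0.24 (SE) was the lowest of the 13 probes in 6 months vs. 0, with an interval from -0.93 to 0.08 and a limma adjusted p of 0.906. CD3G, the gamma chain, was below the pool in 7 of 7 dogs after ASIT, at -0.95 to -0.24 (median -0.54), against 6 of 8 control dogs and 4 of 7 patients before ASIT. Control dogs ranged from -1.13 to 0.27 and patients before ASIT from -1.18 to 0.18, so the groups overlapped, and 6 months vs. ctrl differed by -0.33 ± 0.22 (SE, limma adjusted p = 0.707).

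CD4, the coreceptor for MHC class II, was higher after ASIT than in ctrl by 0.33 ± 0.25 (SE) and had the smallest SD of the 13 probes after ASIT. It ran from -0.26 to 0.52 (median 0.23) in ctrl, from -0.87 to 1.13 (median 0.87) before ASIT and from 0.28 to 0.86 (median 0.58) after it. Before ASIT the patients fell on either side of the control dogs, with dogs 1, 2, 3 and 6 at 0.87 to 1.13, above every control dog, and dogs 4 and 5 at -0.87 and -0.66, below every control dog. After ASIT all 7 dogs were above the pool, as were 7 of 8 control dogs, and 4 of the 7 were above the highest control dog. The difference between the after-ASIT group and ctrl gave an exact permutation p of 0.0109, between 0.00433 and 0.0243 without each array in turn, while limma, which pools the spread of the 3 groups, gave an unadjusted p of 0.213 and an adjusted p of 0.759.

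CD8A, the coreceptor for MHC class I on cytotoxic T cells, varied widely between dogs in ctrl and before ASIT, on both sides of the pool. Probe 1 ran from -0.83 to 0.97 (median -0.16) in ctrl, from -0.67 to 1.36 (median -0.18) before ASIT and from -1.17 to 0.11 (median -0.34) after it. Dog 3 before ASIT was at 1.36 while the other 6 patients were at or below 0.00. Probe 2 gave -0.54 ± 0.28 (SE) in 6 months vs. ctrl, with an interval from -1.13 to 0.05, an exact permutation p of 0.0646 and a limma adjusted p of 0.681. The log2 ratio of CD4 minus that of CD8A probe 1 was positive in 6 of 8 control dogs, 4 of 7 patients before ASIT and 7 of 7 after it, with means of 0.28 ± 0.82 (SD), 0.42 ± 0.83 and 0.96 ± 0.47. This is a difference of levels relative to the pool and gives no ratio of cell numbers.

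LCK, the kinase that phosphorylates the CD3 tails, was measured by 3 probes, all with their lowest mean after ASIT. Probe 1 averaged -0.24 ± 0.34 (SD, n = 8) in ctrl, -0.23 ± 0.62 (n = 7) before and -0.45 ± 0.25 (n = 7) after ASIT, when it was below the pool in 7 of 7 dogs, as in 7 of 8 control dogs. Probe 2 ran from -0.54 to 0.50 (median 0.04) in ctrl, from -1.18 to 0.43 (median 0.02) before and from -0.79 to 0.03 (median -0.37) after ASIT. Against ctrl, the group after ASIT differed by -0.46 ± 0.20 (SE), a ratio of 0.729, with an interval from -0.88 to -0.03, an exact permutation p of 0.0129 and a limma adjusted p of 0.681. Probe 3, the dimmest, gave -0.35 ± 0.20 (exact permutation p = 0.0381). Its exact p rose to 0.0816 without the array of dog 5 after ASIT, while that of probe 2 stayed under 0.05 without each array in turn, at most 0.0286.

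ZAP70, the kinase that binds the phosphorylated CD3 and zeta tails, gave opposite signs with its 2 probes after ASIT. Probe 2 ran from -0.50 to 0.76 (median 0.07) in ctrl, from -0.94 to 0.49 (median -0.28) before ASIT and from -0.83 to 0.16 (median -0.26) after it. Above the pool were 7 of 8 control dogs, 2 of 7 patients before ASIT and 1 of 7 after it, and 6 months vs. ctrl gave -0.40 ± 0.20 (SE), with an exact permutation p of 0.0325 that rose to 0.0829 without dog 5 after ASIT. Probe 1 gave 0.71 ± 0.48 (SE, interval -0.28 to 1.69) in the same comparison. CD28, the costimulatory receptor, showed the same split. Probe 2 ran from -0.48 to 0.66 (median 0.20) in ctrl, from -0.55 to 0.33 (median 0.13) before and from -0.48 to 0.08 (median -0.30) after ASIT, when 6 of 7 dogs were below the pool. Its 6 months vs. ctrl difference was -0.41 ± 0.17 (SE), with an exact permutation p of 0.0214 (at most 0.0403 without each array in turn) and a limma adjusted p of 0.681. CD28 probe 1 gave 0.91 ± 0.46 (interval -0.03 to 1.86) in that comparison.

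**Figure D2:**
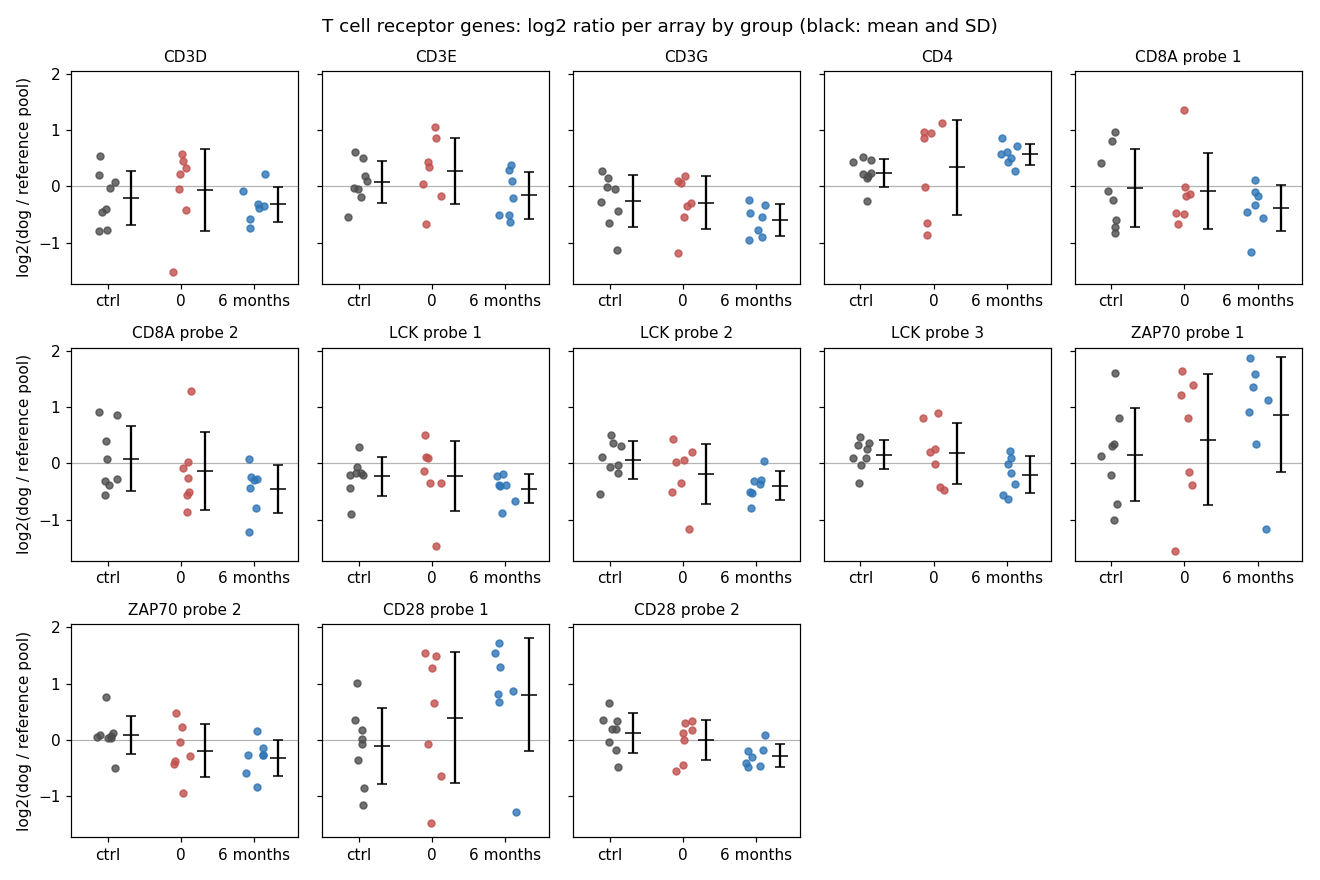
Log2 ratio of the dog to the reference pool (y axis) on each of 22 arrays (points) by group (ctrl, 0 and 6 months) for the 13 probes; black bars give the mean and SD. CD4 lies above 0 in 7 of 7 dogs after ASIT and in 7 of 8 control dogs. LCK probe 1 lies below 0 in 7 of 7 and 7 of 8, and CD3G in 7 of 7 and 6 of 8. Probe 1 of ZAP70 and of CD28 had the largest SD within groups when the groups were pooled (1.00 and 0.96).

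Within dogs, 10 of 13 probes had a lower mean after ASIT than before it, and 2 of them, LCK probes 1 and 3, were lower in 6 of 7 dogs. LCK probe 3 had changes of -1.05 to 0.12 (median -0.21) and an unadjusted exact sign-flip permutation p of 0.0469. This is 1 of 13 probes, against 5.46% of all probes with such a p, and without each dog in turn its p ran from 0.0313 to 0.0938. CD3G and CD28 probe 2 were each lower in 5 of 7 dogs (exact sign-flip p = 0.0781 each), by means of -0.31 ± 0.36 (SD) and -0.27 ± 0.30. CD3E was also lower in 5 of 7 dogs, and dog 3 changed most, by -1.38. CD4 was lower in 4 of 7 dogs and higher in 3, with changes from -0.68 to 1.59, and the dogs with higher values were dogs 4, 5 and 7, which had the lowest CD4 before ASIT. With the dog as a block, the smallest unadjusted limma p of the 13 probes was 0.0525 (LCK probe 3, adjusted p = 0.756), so that 0 of 13 had p under 0.05, against 6.56% of all probes, and 0 of 13 were called, against 0%.

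The mean change had opposite signs in dogs 1 to 3, whose arrays shared a slide, and in dogs 4 to 7, whose arrays did not, for 6 of 13 probes (CD3D, CD4, LCK probes 1 and 2, ZAP70 probe 2 and CD28 probe 1), and no test of that difference was run. CD3D averaged 0.20 in dogs 1 to 3, but -0.10 without dog 2, and -0.60 in dogs 4 to 7. CD4 averaged -0.34 and 0.66, with the same signs without each dog in turn. Without dog 2, the means in dogs 1 to 3 were also negative for LCK probe 1 (-0.26), LCK probe 2 (-0.28) and ZAP70 probe 2 (-0.29). For CD28 probe 1 the mean in dogs 1 to 3 was -0.07, but 0.10 without dog 3. With the slide as a fixed block, the change over therapy was 0.03 for CD3D and -0.01 for CD4. CD3E averaged -0.67 and -0.24, CD8A probe 1 -0.35 and -0.27, CD28 probe 2 -0.28 and -0.27, and LCK probe 3 -0.21 and -0.51. Dog 3 carried much of these means in dogs 1 to 3, which without it were -0.32 for CD3E, 0.24 for CD8A probe 1, -0.03 for CD28 probe 2 and 0.05 for LCK probe 3. Whether the slide has a part in the changes of CD3D and CD4 was not tested beyond these values. In dogs 4 to 7 slide, scan day and therapy changed together and cannot be told apart.

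**Figure D3:**
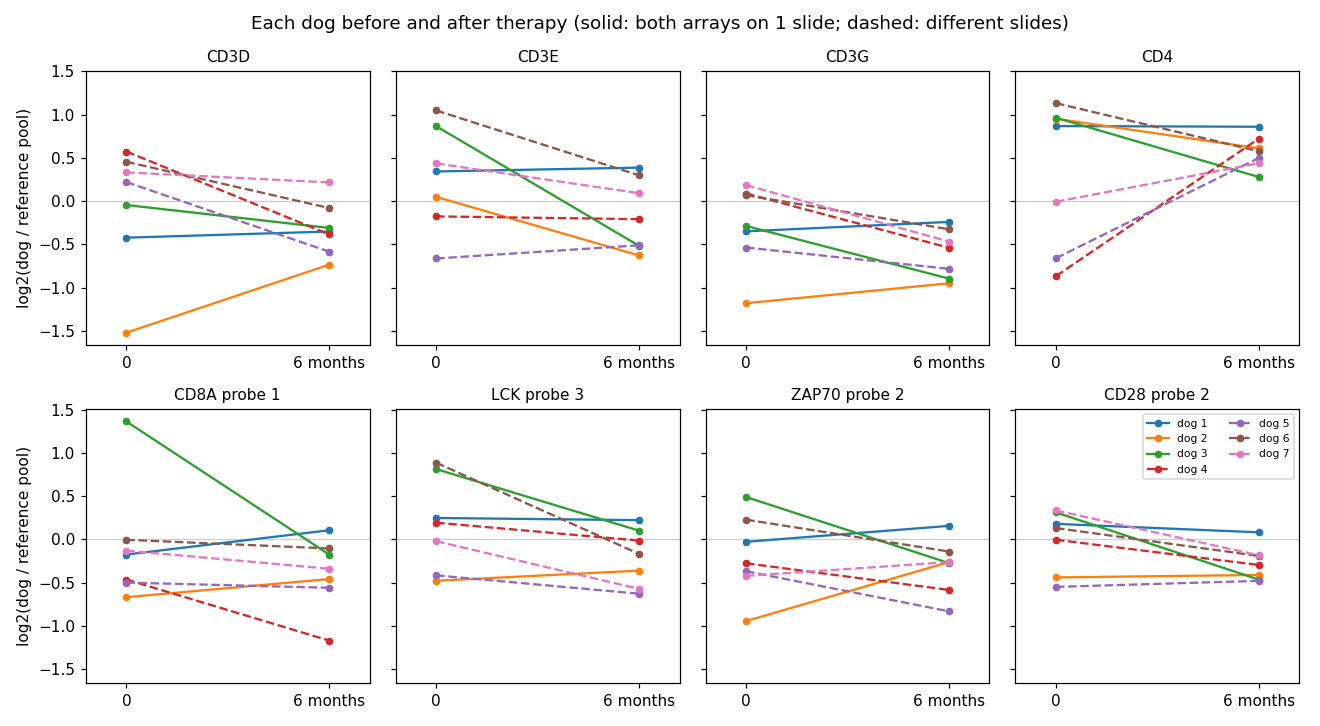
Log2 ratio to the reference pool (y axis) at both time points in each of 7 cAD patients, for 8 of the 13 probes; solid lines join arrays of the same slide (dogs 1 to 3) and dashed lines arrays of different slides (dogs 4 to 7). LCK probe 3 is lower in 6 of 7 dogs, and CD4 goes from -0.87 to 1.13 before ASIT to 0.28 to 0.86 after it.

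The spread between dogs was smaller after ASIT than before it for 13 of 13 probes, while 63.2% of all probes tested showed this. The SD of CD4 went from 0.84 to 0.19, that of LCK probe 1 from 0.62 to 0.25 and that of CD3D from 0.73 to 0.31. Dog 2 had the lowest value before ASIT of CD3D, CD3G, LCK probes 1 to 3, ZAP70 probe 2 and both CD8A probes, and without it the counts were 13 of 13 and 60.5%. In ctrl the SD of CD4 was 0.25 and that of CD3D 0.48. Many of the probes correlate between dogs, so that the 13 are not independent. After ASIT, dogs 4 to 7 shared a slide and scan day that held no other array. The part of this in the spread was not tested.

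Correlations between the members were taken over the 22 arrays after the mean of each group was removed, and 169, with the marker lists below included, were computed, with p-values from 100000 permutations within groups. The arrays share the reference RNA, and the cAD patients are present with 2 arrays each, so that these are not 22 independent dogs and the p-values are too small. CD3D correlated with LCK probe 1 (r = 0.88, rho = 0.86) and with CD3G (r = 0.79, rho = 0.74), with adjusted permutation p of 0.000483 and 0.00237 over the 169. With CD3E it correlated by r = 0.27 (rho = 0.30, adjusted p = 0.575). Leaving out the 2 arrays farthest from the median gave r = 0.75 for CD3D with LCK probe 1 and 0.64 with CD3G. CD3E was closest to CD28 probe 2 (r = 0.69, rho = 0.71) and ZAP70 probe 2 (r = 0.67, rho = 0.65), with adjusted permutation p of 0.007 and 0.0148. Probes of the same gene gave r = 0.96 for CD8A, and 0.82, 0.62 and 0.90 for LCK probes 1 and 2, 1 and 3, and 2 and 3. CD4 ran from r = -0.43 with CD3D (rho = -0.36, adjusted permutation p = 0.345) to r = 0.54 with CD3E (rho = 0.47).

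Against lists of markers of blood cells, the members also parted. The neutrophil list (7 genes, among them CSF3R and S100A8) correlated with CD3D by r = -0.67 and with LCK probe 1 by r = -0.72 (rho = -0.58 and -0.56, permutation p = 0.00226 and 0.00072, adjusted over the 169 p = 0.0147 and 0.00608), and with CD4 by r = 0.50 (rho = 0.60, adjusted p = 0.105 for r and 0.0191 for rho). The other CD3 chains and LCK probes gave r = -0.18 (CD3E), -0.39 (CD3G), -0.40 (LCK probe 2) and -0.18 (LCK probe 3), with adjusted p of 0.248 to 0.696. Without the 2 farthest arrays, r was -0.48 for CD3D and -0.62 for LCK probe 1. The cytotoxic and NK list (6 genes, among them GZMA and PRF1) correlated with CD8A probe 1 by r = 0.70 (rho = 0.65, permutation p = 4e-04, adjusted p = 0.00376, and r = 0.64 without the 2 farthest arrays).

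**Figure D4:**
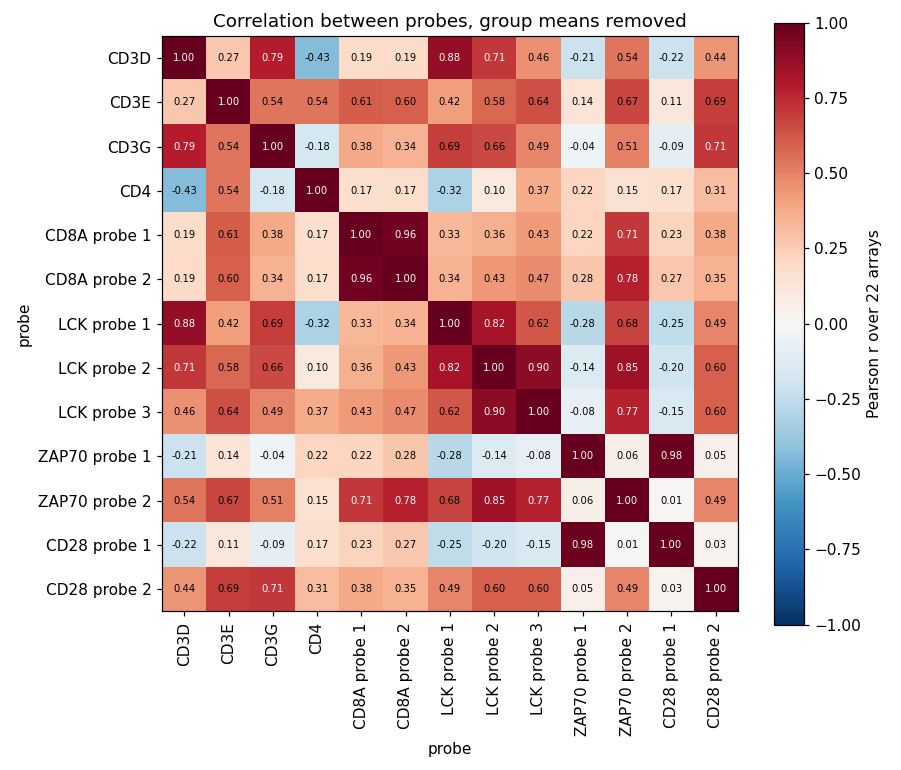
Pearson r between the 13 probes over 22 arrays with group means removed (colour scale from -1 to 1, values in the cells). CD3D, CD3G and the LCK probes have r of 0.46 to 0.90 with each other, and ZAP70 probe 2 reaches 0.85 with LCK probe 2. CD8A probes 1 and 2 reach 0.96. ZAP70 probe 1 and CD28 probe 1 reach 0.98 with each other while staying near 0 with the probe 2 of their own gene.

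ZAP70 probe 1 and CD28 probe 1 followed each other and not the other probe of their own gene. They correlated with each other by r = 0.98 (rho = 0.96), against r = 0.06 (rho = 0.17) between the ZAP70 probes and r = 0.03 (rho = -0.03) between the CD28 probes. Both were above the pool in dogs 1, 2, 3 and 7 at both time points, with ZAP70 probe 1 at 0.80 and 1.13, 1.63 and 1.86, 1.22 and 0.92, and 1.39 and 1.59 before and after ASIT, and both were lowest after ASIT in dog 4, at -1.17 and -1.28. Their SD between arrays within groups was 1.00 and 0.96, against 0.31 to 0.61 for the other 11 probes. The spread was wider in the Cy5 signal, with an SD of 0.86 and 1.12, than in the Cy3 signal of the shared reference, with 0.43 and 0.39, which for the other 11 probes had an SD of 0.16 to 0.26.

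The same pair followed the markers of red cell precursors. Over 22 arrays the mean of 6 erythroid genes (among them ALAS2, the first enzyme of heme synthesis in red cells, and SLC4A1, the anion exchanger of the red cell membrane) correlated with ZAP70 probe 1 by r = 0.94 (rho = 0.92) and with CD28 probe 1 by r = 0.90 (rho = 0.88). The permutation p was 1e-05 for both r values, the smallest that 100000 permutations can give (adjusted p = 0.000282). Leaving out the 2 arrays farthest from the median gave r = 0.92 and 0.86, and within ctrl, before ASIT and after ASIT r was 0.91, 0.99 and 0.95 for ZAP70 probe 1 and 0.87, 0.99 and 0.88 for CD28 probe 1. Gene by gene, r was 0.80 to 0.93 for 5 of the 6 and 0.51 and 0.53 for TFRC, the transferrin receptor. Of all 38285 probes tested, 1.66% had an r of at least 0.89 with the erythroid mean. The erythroid mean ran from -1.40 to 1.16 (median -0.26) in ctrl, from -1.24 to 1.09 (median 0.58) before ASIT and from -0.70 to 1.38 (median 0.72) after it, all 6 genes were well above background on all 22 arrays, and none of them differed between groups (smallest limma adjusted p = 0.476). The monocyte list correlated with ZAP70 probe 1 by r = -0.66 and with CD28 probe 1 by r = -0.68. The adjusted permutation p was 0.0134 and 0.00977. The part of erythroid or monocyte RNA in the values of these probes was not tested.

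**Figure D5:**
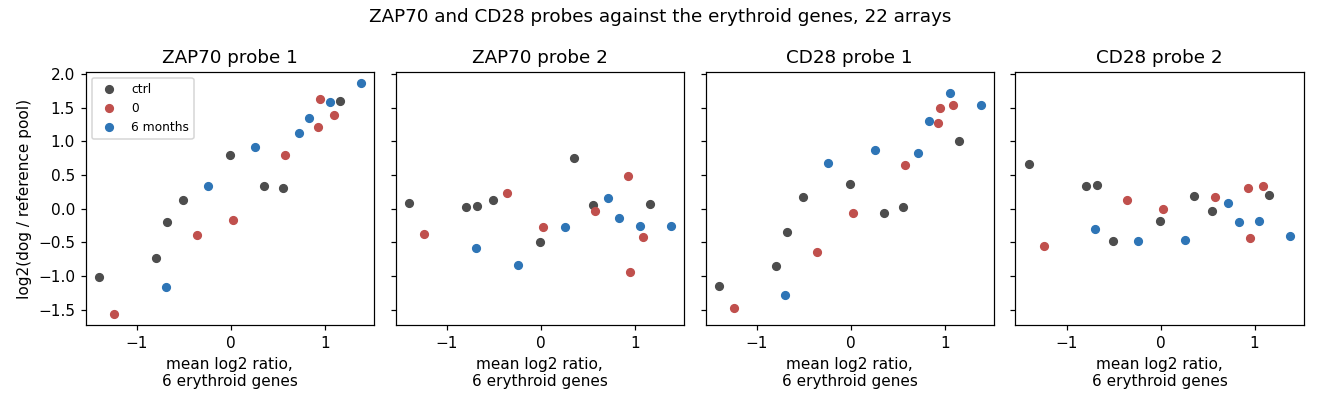
Log2 ratio to the reference pool of ZAP70 probes 1 and 2 and CD28 probes 1 and 2 (y axes) against the mean log2 ratio of 6 erythroid genes (x axis) on 22 arrays, coloured by group. Probe 1 of both genes increases along the erythroid mean (r = 0.94 and 0.90), and probe 2 of both genes shows no such course.

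Many other probes shared this pattern. Over 12632 genes, each read from its brightest probe, 770 had r above 0.9 with ZAP70 probe 1 and 793 with CD28 probe 1, against 0 to 4 for each of the other 11 probes. The closest to ZAP70 probe 1 were TMPRSS15, ZNF783 and NFKBID (r = 0.997, 0.995 and 0.995), and among the 3 closest to CD28 probe 1 were ZP3, which encodes an egg coat protein, and ADCY1 (r = 0.998 and 0.997). These genes were named after their values were seen. Among further genes of the T cell receptor pathway, PDCD1 (r = 0.86), GRAP2 (0.84) and TXK (0.83) also followed the erythroid mean, and 4.55% of all probes tested had r above 0.8 with it. PDCD1, GRAP2 and TXK were likewise picked on this value.

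The same 12632 probes were compared with the mean of CD3D, CD3E and CD3G over 22 arrays with group means removed. The 5 genes most like that mean were ABLIM1, SKAP1, PRKCQ, GPR171 and CD2. ABLIM1 had r = 0.86 (rho = 0.84), and SKAP1, an adaptor of the T cell receptor, r = 0.86 (rho = 0.85). PRKCQ, the protein kinase C theta of T cells, had r = 0.86 (rho = 0.77). GPR171 had r = 0.86 (rho = 0.73), and CD2, an adhesion receptor of T cells, r = 0.85 (rho = 0.82). With normexp-corrected signals the smallest of these 5 values was 0.82.

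Of 52 further genes of the T cell receptor pathway, 47 had a probe, and none was called in any of the 3 comparisons. In 0 vs. ctrl 23 of 47 were higher and 24 lower, with a median difference of -0.01. After ASIT, 34 of 47 were lower than in ctrl (median -0.23), and in 6 months vs. 0 36 of 47 were lower (median -0.14), among them 10 of 10 genes of the downstream enzymes and factors (median -0.22), 5 of 6 costimulatory genes (-0.17), 8 of 11 inhibitors (-0.05), 6 of 7 genes of T cell identity (-0.27) and 7 of 13 genes of proximal signalling (-0.01). Unadjusted limma p-values under 0.05 numbered 1, 5 and 1 of 47 (2.13, 10.6 and 2.13%), beside 11.7, 7.2 and 5.96% of all probes.

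Of the pathway genes chosen for naming, CD8B, the beta chain of the CD8 coreceptor, differed by -0.50 ± 0.27 (SE) in 6 months vs. ctrl and by -0.51 ± 0.28 in 6 months vs. 0. CD2 differed by -0.48 ± 0.20 in 6 months vs. 0, with an unadjusted limma p of 0.021 and an adjusted p of 0.685. FYN, a kinase related to LCK, gave -0.44 ± 0.21 in 6 months vs. ctrl, PTPRC, the phosphatase CD45, -0.33 ± 0.17, and the costimulatory receptor CD27 -0.32 ± 0.16 (limma adjusted p = 0.681 each). The adaptor LCP2 (0.00 ± 0.18), the costimulatory receptor ICOS (-0.13 ± 0.18) and the inhibitory receptor CTLA4 (0.04 ± 0.20) lay closer to 0. LAT and CD5 had no probe under these symbols.

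Lists of other blood cells also differed in direction, and their part in the values of the members was not tested. In 6 months vs. ctrl, 5 of 7 B cell genes, 5 of 6 cytotoxic and NK genes and 5 of 5 platelet genes were lower, 5 of 6 erythroid genes were higher (median 0.74), and monocyte and neutrophil genes had medians of 0.00 and 0.07. Over therapy, 6 of 7 B cell genes, 5 of 6 cytotoxic and NK genes, 1 of 7 monocyte genes, 2 of 7 neutrophil genes and 2 of 6 erythroid genes were lower, and 5 of 5 platelet genes were higher (median 0.36). The T cell list was lower for 8 of 8 genes in both comparisons, 3 of them the CD3 chains, and its mean per array ran from -0.61 to 0.18 in ctrl, from -0.89 to 0.28 before ASIT and from -0.77 to -0.18 after it. None of these genes was called.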

How the data were processed

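Per array, the authors deposited a scanner table with the intensity of every spot, its signal flags and the log10 ratio of Cy5 to Cy3 that Agilent Feature Extraction had computed from background-subtracted, Lowess-normalized signals, and a series matrix of log10 ratios, which correlated with the scanner ratios by r = 1 on the 14 patient arrays and by r = 0.708 to 0.844 on the 8 control arrays. The scanner ratios were used for all arrays. The submitters' notes name Feature Extraction 10.7.3.1 and the file headers 10.10.1.1. Here the deposited log10 ratios were converted to log2, control spots and 208 outlier spots were left out, and spots of a probe were averaged. Probes with Cy5 well above background on at least 7 of 22 arrays (38285) were tested in R 4.3.3 with limma 3.58.1, in a fit of the 3 groups with no block, since the methods name none. Exact permutation tests were two-sided. They numbered 39 between groups and 13 within dogs and are given unadjusted. Their smallest possible p is 0.000155 for 7 against 8, 0.000583 for 7 against 7 and 0.0156 within dogs. The number of arrays limits the precision.

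The labels name the same dogs before and after ASIT. The arrays of a dog correlated by -0.04 to 0.56 in deviations from group means, above 0.1 in 6 of 7 dogs, and no pair of arrays by more than 0.70. The value of a gene in the alternatives is its brightest probe. The genes named are the members, a fixed set of pathway genes and the 5 most like the CD3 chains. A few genes within these rules are not reported here. The members and lists were chosen with earlier results of these data known. Alternatives were normexp (offset 50) with loess, the series matrix, processed-signal ratios, Cy5 alone, other filters, the mean of the probes of a gene, the methods' test, blocks for slide, dog or scan day, dogs 1 to 3 alone, and leaving out each dog. The scan day, the second brightest probe and other values for the likeness were added after seeing the data. Fits were tested on simulated data. Figures were drawn with Python 3.11.15 and matplotlib.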

Additional observations from a re-analysis of the deposited data

Results flagged for a closer look

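In 3 of 52 groups of values, 1 array stood apart from the rest of its group by Dixon's criterion at the 95% level, and chance gives about 1 in 20. CD8A probe 1 of dog 3 before ASIT was at 1.36, and the next highest patient at 0.00. CD8A probe 2 of the same array was at 1.28, and the next at 0.02. Without dog 3, CD8A probe 1 differed by -0.29 in 0 vs. ctrl and by -0.10 in 6 months vs. 0. CD28 probe 1 of dog 4 after ASIT was at -1.28, and the next lowest dog at 0.68. Without dog 4, CD28 probe 1 differed by 1.26 in 6 months vs. ctrl (limma adjusted p = 0.235).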

How the results depend on the processing

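No member was called under any alternative but the Cy5 channel alone, which called 1 of 13 probes in 0 vs. ctrl (CD3E, 0.84, limma adjusted p = 0.00588) and 1 in 6 months vs. ctrl (CD4, 0.71, adjusted p = 0.0196), and 7 of 47 pathway genes in each. With Cy5 alone the median difference of all probes was -0.44 and -0.37 (-0.02 and -0.04 otherwise), and it called 17285 and 15711 probes. In 6 months vs. 0 no member was called with the dog as a block (replicate block, 0 of 13) either, and the pairing changed no call. Some differences, none of them called, changed sign. In 0 vs. ctrl these were CD3G (0.064 with normexp, 0.13 with Cy5 alone), CD8A probe 1 (0.014 and 0.12), CD28 probe 1 (0.50, and -0.028 with Cy5 alone), LCK probe 1 (-0.00030 with the series matrix, -0.073 with the mean of its probes, -0.054 with the scan day as a random block) and ZAP70 probe 1 (-0.0048 with the mean of its probes). Without each dog in turn, CD3G ran from -0.15 to 0.13, LCK probe 1 from -0.12 to 0.21, CD4 from -0.035 to 0.30 and CD8A probe 1 from -0.29 to 0.094. CD3E in 6 months vs. ctrl was -0.23, and 0.40 with Cy5 alone. The second brightest probe gave -0.25 for LCK in 0 vs. ctrl, and -0.27, -0.40 and -0.13 for ZAP70 and -0.14, -0.41 and -0.27 for CD28 in the 3 comparisons. In 6 months vs. 0, dogs 1 to 3 alone gave 0.20 for CD3D, 0.020 for LCK probe 1, -0.34 for CD4 and -0.069 for CD28 probe 1, the slide as a fixed block gave 0.027 for CD3D and -0.013 for CD4, and the scan day as a fixed block gave -0.020 for CD4 and 0.030 for CD8A probe 1. Apart from the choice of probe and of dogs, the cause was not tested. The 16 probes called in 0 vs. ctrl ran from 0 to 380 without each dog in turn, the highest without dog 1.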
